A study of Mus with 8 samples.

Results

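Retinoid synthesis, binding and response genes were followed in mouse uterus as a set of 9 genes picked by symbol from a table of 31269 gene symbols: Rbp4, Stra6, Dhrs3, Aldh1a1, Aldh1a2, Aldh1a3, Crabp1, Crabp2 and Rarb. All 9 were found and all 9 passed the filter on low counts. RNA sequencing was done on 8 libraries at pseudopregnancy day 6, the progesterone-dominated state after a sterile mating. Of these, 4 were labelled control and 4 as having PGR (progesterone receptor) deficiency in the myometrium, which is the muscular layer. Strain, age, allele, any driver of a deletion and any pooling of animals were not found in the labels, and nothing states that each library is a separate animal, so p-values measure the spread between libraries. The tissue label names implantation sites, which pseudopregnancy does not have, so the region sampled is uncertain.

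Retinol (vitamin A) travels in blood bound to RBP4 and enters some cells through STRA6. Inside the cell it is oxidised to retinaldehyde, which DHRS3 turns back to retinol and the ALDH1A enzymes turn irreversibly into retinoic acid. CRABP1 and CRABP2 bind retinoic acid in the cytoplasm, enzymes of the CYP26 family break it down, and nuclear receptors such as RARB switch genes on when they bind it. In the uterus, retinoic acid signalling is known to be kept within limits around implantation, and Cyp26a1 is known to be made by the epithelium at that time.

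Total counts ran from 70296369 to 72364750 per library. Levels are given as CPM, read counts scaled to a common library size with TMM factors (which correct for library composition), and differences as log2 of labelled deficient over control with their standard error (SE). They come from edgeR's quasi-likelihood test, with p-values adjusted by the Benjamini-Hochberg method over 17629 genes. The table holds no transcript lengths, so levels are compared between libraries and not between genes. Pgr itself did not have lower counts under the deficiency label, at 131 to 180 CPM in the controls and 160 to 187 CPM in the others (0.18 ± 0.11 SE, adjusted p = 0.338). Counts over the whole tissue and whole gene do not separate a loss in muscle cells, so the group is called labelled deficient and every direction rests on that label.

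The clearest differences lay in the enzymes that make retinoic acid and in the proteins that bind it. Aldh1a2 was higher and Aldh1a1 lower in each of the 4 libraries labelled deficient than in any control, by 2.77-fold and 1.55-fold in the fit. Crabp1 and Crabp2 measured 4.81 and 25.8 times the control level in the fit, with a small overlap between groups in each. Aldh1a3 pointed lower and Rbp4 higher with overlapping groups, and Stra6, Dhrs3 and Rarb differed by less than their spread.

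None of the 9 passed the adjusted threshold of 0.05 in edgeR, and neither did any other gene (0% of 17629, smallest adjusted p 0.0715). At an unadjusted p under 0.05, 3 of the 9 were higher (Aldh1a2, Crabp1 and Crabp2), where 13% of all genes were, and 1 was lower (Aldh1a1), where 11.8% were. The groups did not overlap in 1 of the 9 in the upward direction, against 7.61% of all genes, and in 1 in the downward direction, against 8.66%. DESeq2, the other count test run, called the same 4 genes past its adjusted threshold, 3 higher and 1 lower, where it called 7.43% and 6.72% of all genes. The median log2 difference was 0.18 over the 9 and 0.01 over all genes tested.

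**Figure D1:**
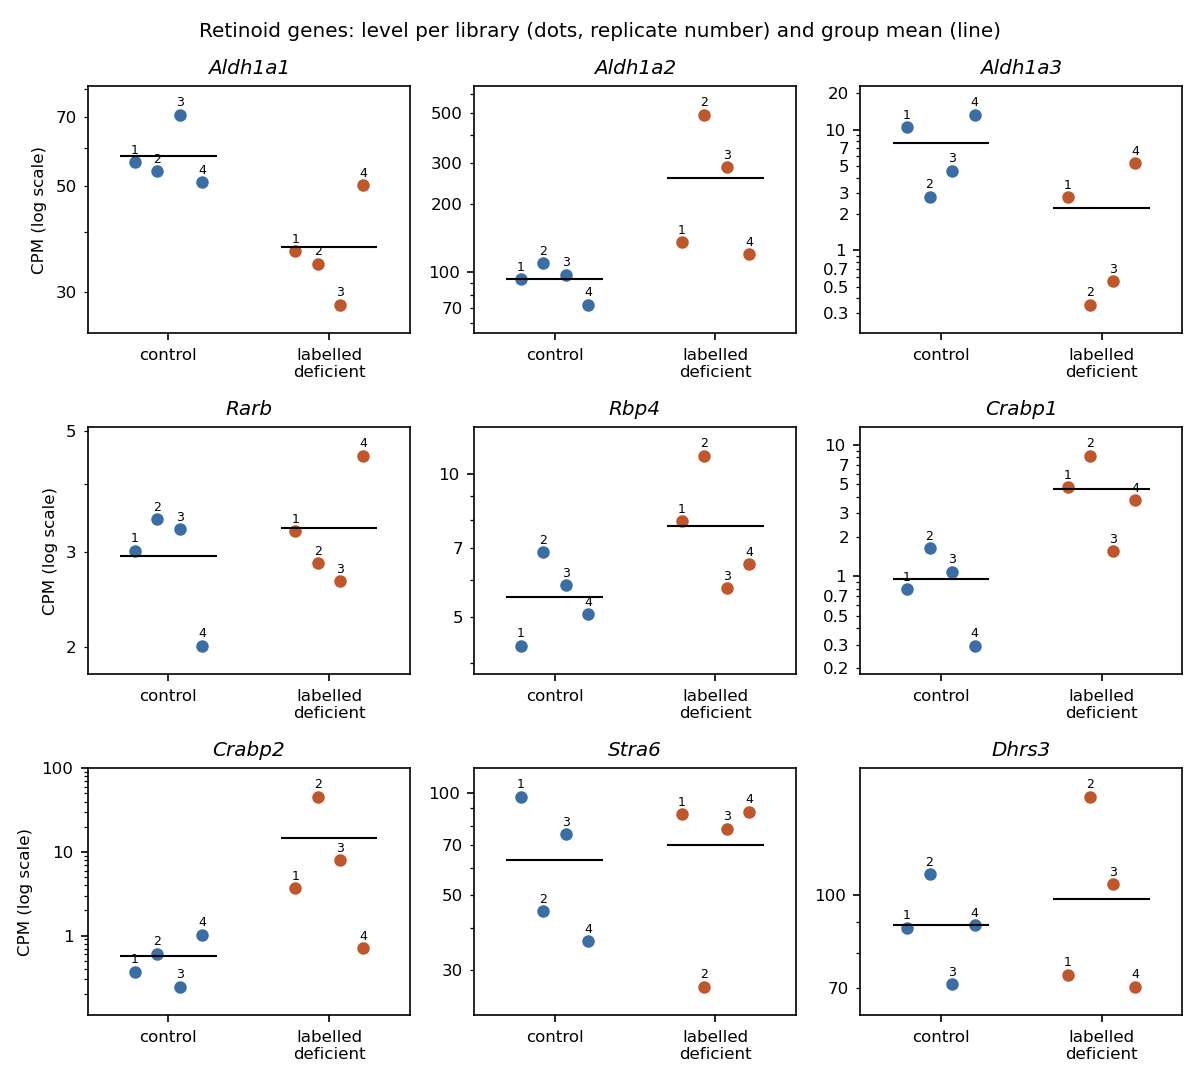
Level of each of the 9 genes in CPM (vertical axes, log scale) in the 4 control and 4 labelled deficient libraries; dots are libraries with their replicate number and lines are group means. Aldh1a1 and Aldh1a2 are the genes whose groups do not overlap, and library 2 labelled deficient is the highest for Aldh1a2, Crabp1, Crabp2, Rbp4 and Dhrs3 and the lowest for Aldh1a3 and Stra6.

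Aldh1a2 encodes retinaldehyde dehydrogenase 2, the main enzyme of retinoic acid synthesis in many tissues. The gene spans 71215789 to 71296243 of chromosome 9 in GRCm38.p6, the assembly behind all positions given. It stood at 93.3, 110, 98.0 and 72.5 CPM in control libraries 1 to 4 and 135, 490, 288 and 121 CPM in libraries 1 to 4 labelled deficient. Libraries 2 and 3 labelled deficient were far above the rest, while libraries 1 and 4 stood just above the highest control. Group means were 93.4 ± 15.7 and 259 ± 172 CPM (SD, n = 4), so the spread in the second group was also much wider. The log2 difference was 1.47 ± 0.43 (SE; adjusted p = 0.111 in edgeR, adjusted p = 0.00785 in DESeq2), with p = 0.0286 by exact permutation (two-sided), the smallest that 4 against 4 allows. In bulk tissue, more cells of a type and more RNA per cell cannot be told apart.

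Without libraries 2 and 3 labelled deficient the Aldh1a2 difference was 0.46 ± 0.15 (SE), or 1.37-fold (adjusted p = 0.204 in edgeR and 0.0841 in DESeq2). Both remaining libraries still lay above all 4 controls, as they did for 14.8% of all genes. The DESeq2 call was also lost without control library 4 (adjusted p = 0.0562). The size of the difference therefore rests on those 2 libraries, and the direction is present in all 4.

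Aldh1a1, for retinaldehyde dehydrogenase 1, went the other way. It lies on chromosome 19 from 20492583 to 20643463. Its level was 56.1, 53.7, 70.7 and 51.0 CPM in control libraries 1 to 4 and 36.5, 34.4, 28.2 and 50.2 CPM in libraries 1 to 4 labelled deficient. Library 4 labelled deficient came within 1 CPM of the lowest control, and the other 3 were well below it. In the fit Aldh1a1 differed by -0.63 ± 0.18 (SE; adjusted p = 0.108 in edgeR, adjusted p = 0.0188 in DESeq2; exact permutation, two-sided, p = 0.0286). DESeq2 lost this call on leaving out control library 1 or 3 or library 2 or 3 labelled deficient (adjusted p from 0.0595 to 0.0854), and without both of the latter the difference was -0.41 ± 0.17 (SE). Aldh1a7, a close copy of Aldh1a1 that could share its reads, had 49 to 167 counts against 1987 to 5167 for Aldh1a1. Of the genes that overlap Aldh1a1 on the map, the noncoding E030003E18Rik had a mean of 158.5 counts.

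Aldh1a3, for retinaldehyde dehydrogenase 3, had a wide range in both groups. It lies on chromosome 7 from 66390892 to 66427477. Its level was 10.5, 2.78, 4.59 and 13.4 CPM in control libraries 1 to 4 and 2.76, 0.356, 0.553 and 5.29 CPM in libraries 1 to 4 labelled deficient. Libraries 2 and 3 labelled deficient had 24 and 39 counts, far below every control, library 1 was just under the lowest control and library 4 lay within the control range. In the fit Aldh1a3 differed by -1.80 ± 0.87 (SE; adjusted p = 0.237; 95% interval from -3.79 to 0.20), with p = 0.114 in the two-sided exact permutation test.

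Taken as shares of the summed counts of the 3 enzymes, a measure free of library scaling that was chosen after the values were seen, Aldh1a2 made up 58.4, 66.1, 56.5 and 53.0% in control libraries 1 to 4. In the libraries labelled deficient it made up 77.5, 93.4, 90.9 and 68.4%, above every control. Aldh1a1 made up 32.3 to 40.8% of the counts in the controls and 28.5% at most in the libraries labelled deficient, down to 6.55% in library 2. The summed level was 137 to 173 CPM in the controls, 175 and 176 CPM in libraries 1 and 4 labelled deficient and 525 and 317 CPM in libraries 2 and 3. Counts are not corrected for transcript length, so the shares compare libraries and do not give the makeup of the messenger RNA.

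**Figure D2:**
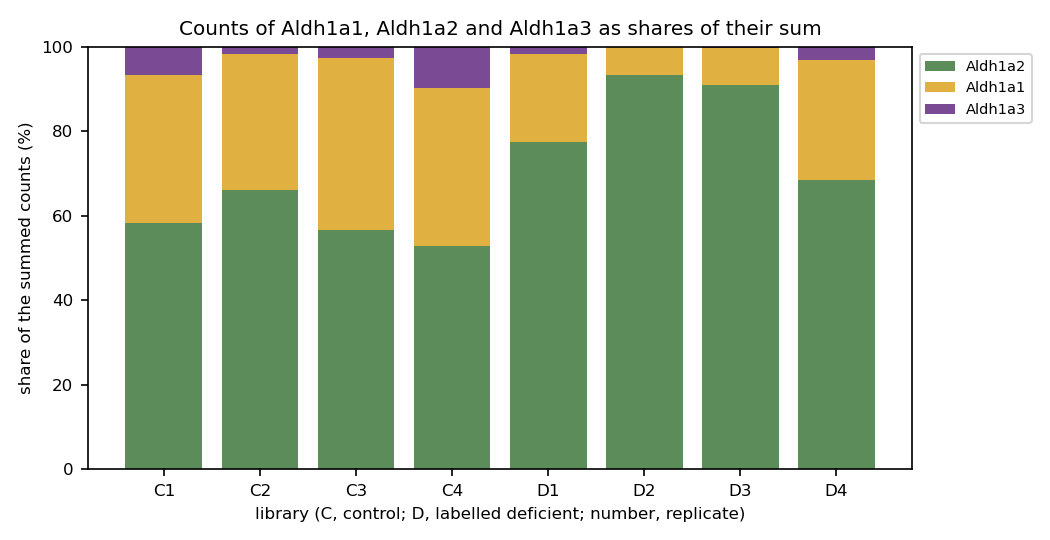
Counts of Aldh1a1, Aldh1a2 and Aldh1a3 as percentages of their sum (vertical axis) in each library (C, control; D, labelled deficient; number, replicate). The Aldh1a2 share runs from 53.0 to 66.1% in the controls and from 68.4 to 93.4% in the libraries labelled deficient.

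Crabp2, whose protein carries retinoic acid to its nuclear receptors, had the largest fitted difference of the 9. It lies on chromosome 3 from 87948693 to 87953372. Its level was 0.372, 0.607, 0.246 and 1.03 CPM in control libraries 1 to 4, which are 27, 43, 18 and 73 counts. It was 3.68, 46.0, 8.03 and 0.711 CPM in libraries 1 to 4 labelled deficient, or 266, 3100, 566 and 52 counts. Libraries 1 to 3 were above every control, and library 4 lay inside the control range. In the fit Crabp2 differed by 4.69 ± 1.24 (SE), or 25.8-fold, the 95% interval reaching from 3.63 to 184 (adjusted p = 0.101 in edgeR, adjusted p = 0.0015 in DESeq2; exact permutation, two-sided, p = 0.0571).

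Library 2 labelled deficient decided most of that ratio. Without it the log2 difference of Crabp2 was 2.88 in edgeR, and DESeq2 called the gene with each single library left out in turn. Without both libraries 2 and 3 labelled deficient it was 1.96 ± 0.73 (SE; adjusted p = 0.230 in edgeR and 0.102 in DESeq2).

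Crabp1, whose protein also binds retinoic acid and is linked to its turnover, was higher with less dependence on those libraries. It lies on chromosome 9 from 54764748 to 54773110. Its level was 0.799, 1.64, 1.08 and 0.296 CPM in control libraries 1 to 4 and 4.75, 8.28, 1.55 and 3.803 CPM in libraries 1 to 4 labelled deficient. Library 3 labelled deficient was just under control library 2, and the other 3 were above every control. For Crabp1 the fit gave 2.27 ± 0.61 (SE), or 4.81-fold, the 95% interval reaching from 1.82 to 12.7 (adjusted p = 0.102 in edgeR, adjusted p = 0.00347 in DESeq2; exact permutation, two-sided, p = 0.0571). With libraries 2 and 3 of that group left out it was 2.17 ± 0.54 (SE). DESeq2 then still called it (adjusted p = 0.00644), while edgeR did not (adjusted p = 0.150). The remaining libraries of the group were above every control, as they were for 14.8% of all genes.

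Library 2 labelled deficient was the highest of all 8 for both Crabp1 and Crabp2, while libraries 3 and 4 differed in order. Library 4 labelled deficient had a Crabp1 level above all controls and a Crabp2 level within them, and there were 0.187 Crabp2 counts per Crabp1 count in it. The same ratio was 5.56 and 5.19 in libraries 2 and 3 labelled deficient and 0.773 in library 1. Among the controls it ran from 0.228 to 3.48, with control library 4 the highest.

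**Figure D3:**
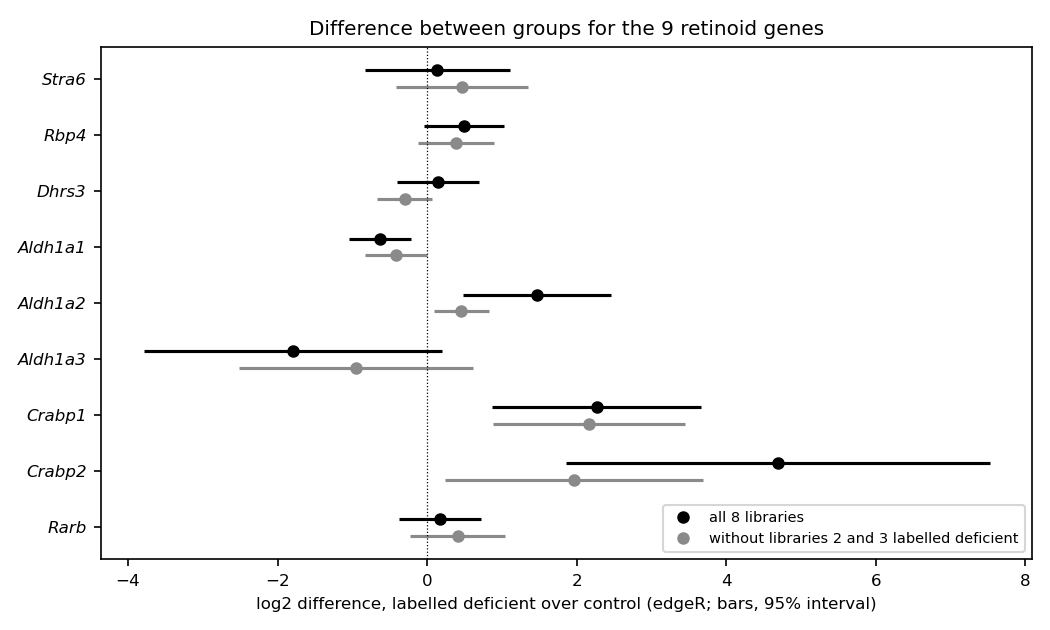
Log2 difference of labelled deficient over control from edgeR (horizontal axis) for the 9 genes, with all 8 libraries (black) and without libraries 2 and 3 labelled deficient (grey); bars are 95% intervals. The Aldh1a2 and Crabp2 differences shrink from 1.47 to 0.46 and from 4.69 to 1.96, while Crabp1 goes from 2.27 to 2.17.

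Of the genes of retinol supply, Rbp4, for the blood carrier of retinol, lies on chromosome 19 from 38116620 to 38125321. Its level was 4.35, 6.84, 5.83 and 5.06 CPM in control libraries 1 to 4 and 7.98, 10.96, 5.75 and 6.47 CPM in libraries 1 to 4 labelled deficient. Libraries 1 and 2 labelled deficient were above every control and the other 2 within the control range. For Rbp4 the fit gave 0.50 ± 0.24 (SE; adjusted p = 0.229; 95% interval from -0.04 to 1.03). Adipocytes are a known source of Rbp4 outside the liver, and of 8 adipocyte markers Adipoq, Plin1, Cidec, Lep, Cfd and Retn were each at most 0.089 CPM in every library. The other 2 were Plin4, at 12.9 to 29.7 CPM in the controls and 10.3 to 21.4 CPM in the libraries labelled deficient, and Fabp4, at 0.465 to 1.83 CPM and 0.525 to 3.49 CPM.

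Stra6, for the membrane receptor of RBP4, lies on chromosome 9 from 58063793 to 58154004. Its level was 97.5, 44.8, 75.4 and 36.4 CPM in control libraries 1 to 4 and 86.6, 26.8, 78.4 and 88.0 CPM in libraries 1 to 4 labelled deficient. Controls spanned a wide range that took in 3 of the 4 libraries labelled deficient, and library 2 labelled deficient was below them all. For Stra6 the fit gave 0.14 ± 0.42 (SE; adjusted p = 0.858; 95% interval from -0.83 to 1.11) and turned to -0.06 without control library 4.

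Dhrs3, for the reductase that returns retinaldehyde to retinol, lies on chromosome 4 from 144892534 to 144928209. Its level was 88.1, 108, 71.1 and 89.0 CPM in control libraries 1 to 4 and 73.7, 145, 104 and 70.4 CPM in libraries 1 to 4 labelled deficient. Library 2 labelled deficient was the highest of all 8 and library 4 the lowest. The log2 difference was 0.14 ± 0.24 (SE; adjusted p = 0.732; 95% interval from -0.41 to 0.69), and it turned to -0.10 without library 2 labelled deficient and to -0.30 without libraries 2 and 3. The map places Vps13d, a gene with a mean of 9564.5 counts, across part of Dhrs3. Since the strand setting of the counting is not given here, reads of both could be mixed where they overlap.

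Rarb encodes retinoic acid receptor beta, and retinoic acid is known to induce it. It lies on chromosome 14 from 16430839 to 17082331. Its level was 3.02, 3.44, 3.30 and 2.02 CPM in control libraries 1 to 4 and 3.28, 2.86, 2.65 and 4.51 CPM in libraries 1 to 4 labelled deficient. Library 4 labelled deficient was the highest, and libraries 2 and 3, where Aldh1a2 was highest, were under 3 of the 4 controls. The log2 difference was 0.18 ± 0.24 (SE; adjusted p = 0.666; 95% interval from -0.37 to 0.73) and was -0.01 without library 4 labelled deficient.

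Among 63 other retinoid pathway genes in the table, 53 were tested. Unadjusted p was under 0.05 with a higher level for 10 of these and with a lower level for 7, where 13% and 11.8% of all genes were, and 0 passed the adjusted threshold in edgeR. DESeq2 called 4 higher and 5 lower, against 7.43% and 6.72% of all genes. The median log2 difference of the 53 was 0.06, against 0.01 over all genes.

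Of the 3 breakdown enzymes, all tested, 0 were higher and 1, Cyp26c1, was lower at an unadjusted p under 0.05 (13% and 11.8% of all genes). Cyp26a1, the main retinoic acid hydroxylase of the uterine epithelium and singled out here after its values were seen, was at 222, 248, 149 and 199 CPM in control libraries 1 to 4. It was at 107, 2.77, 13.6 and 109 CPM in libraries 1 to 4 labelled deficient, below every control in each. Libraries 2 and 3 labelled deficient, the ones highest in Aldh1a2, held 187 and 962 counts of Cyp26a1 where the controls held 10876 to 17605. The log2 difference was -1.82 ± 0.93 (SE; adjusted p = 0.260 in edgeR and 0.203 in DESeq2; exact permutation, two-sided, p = 0.0286). Leaving those 2 out gave -0.92 ± 0.19 (SE; adjusted p = 0.135 in edgeR), and DESeq2 then called it (adjusted p = 0.000372).

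There were 1.52 to 2.74 Cyp26a1 counts per Aldh1a2 count in the controls, a ratio also chosen after its values were seen. In libraries 1 to 4 labelled deficient the same ratio was 0.789, 0.00566, 0.0474 and 0.901. Cyp26c1, a relative of Cyp26a1, measured 3.22, 7.08, 3.38 and 4.17 CPM in control libraries 1 to 4 and 1.60, 0.119, 0.951 and 1.37 CPM in libraries 1 to 4 labelled deficient. Its log2 difference was -2.14 ± 0.64 (SE; adjusted p = 0.114 in edgeR, adjusted p = 0.0105 in DESeq2), with no overlap between the groups. Only 8 counts of Cyp26c1 lay behind the level in library 2 labelled deficient. Cyp26b1, the third member, overlapped between the groups at 0.07 ± 0.45 (SE; adjusted p = 0.940).

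Of 17 tested genes that convert retinol and retinaldehyde, 2 were higher and 2 lower at an unadjusted p under 0.05, near the 13% and 11.8% of all genes. Dhrs9, a dehydrogenase able to oxidise retinol, was at 1.63, 3.32, 1.44 and 1.27 CPM in control libraries 1 to 4 and at 6.33, 36.9, 19.4 and 4.25 CPM in libraries 1 to 4 labelled deficient. All 4 of the latter were above all controls (3.13 ± 0.72 SE; adjusted p = 0.0906 in edgeR, adjusted p = 9.5e-05 in DESeq2). Rdh10, the main retinol dehydrogenase for retinoic acid synthesis, was at 260 and 217 CPM in libraries 2 and 3 labelled deficient, against 81.1 to 111 CPM in the controls, with library 1 at 117 CPM and library 4 at 89.0 CPM (0.82 ± 0.32 SE; adjusted p = 0.167). Without libraries 2 and 3 the Rdh10 difference was 0.10 ± 0.15 (SE). The 2 lower genes were Aox1, an aldehyde oxidase (-0.74 ± 0.19 SE; adjusted p = 0.101), and Rdh5, another retinol dehydrogenase (-0.67 ± 0.19 SE; adjusted p = 0.108), both without overlap.

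Of 11 tested genes of retinol entry, transport and storage, 2 were higher and 2 lower by the same measure (13% and 11.8% of all genes). Of the higher ones Lpl, a lipase that also splits retinyl esters, stood at 0.99 ± 0.40 (SE; adjusted p = 0.176), and 0.26 ± 0.14 (SE) without libraries 2 and 3. The lower ones were 1300002K09Rik, now named Stra6l, a second receptor for RBP4 (-0.69 ± 0.19 SE; adjusted p = 0.106; no overlap), and Bco2, a carotenoid oxygenase (-0.43 ± 0.18 SE; adjusted p = 0.193).

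Receptors, partners and cofactors numbered 12 tested, with 4 higher and 2 lower at an unadjusted p under 0.05 (13% and 11.8% of all genes). Rara, for retinoic acid receptor alpha, was at 58.6 to 70.02 CPM in the controls and 74.8 to 108 CPM in the other group, without overlap (0.52 ± 0.12 SE; adjusted p = 0.0906 in edgeR, adjusted p = 0.0032 in DESeq2). Fabp5, whose protein can pass retinoic acid to the receptor PPARD, was at 57.5, 125, 22.8 and 28.1 CPM in libraries 1 to 4 labelled deficient. The controls were at 6.39 to 8.67 CPM except for control library 2, at 27.4 CPM (2.26 ± 0.70 SE; adjusted p = 0.118 in edgeR, adjusted p = 0.0233 in DESeq2). Rxrb, a partner receptor, was lower by a small amount without overlap (-0.24 ± 0.06 SE; adjusted p = 0.1003), and the coactivator Ncoa2 was at -0.18 ± 0.06 (SE; adjusted p = 0.134).

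Genes known to respond to retinoic acid gave 2 higher and 0 lower of 10 tested by the same measure (13% and 11.8% of all genes), with a median of -0.04. Tgm2, for transglutaminase 2, was at 870 to 1163 CPM in the controls and 1182 to 2054 CPM in the other group (0.54 ± 0.20 SE; adjusted p = 0.153), without overlap. Cd38, for a surface NAD-consuming enzyme, was at 0.33 ± 0.13 (SE; adjusted p = 0.161). Rarb and Dhrs3, of the 9, are also known to be induced by retinoic acid and, as given above, did not differ beyond their spread. Crabp2, Stra6 and Cyp26a1 are known to be induced by it as well. Their log2 differences were 4.69 ± 1.24, 0.14 ± 0.42 and -1.82 ± 0.93 (SE), so the induced genes did not share a direction.

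**Figure D4:**
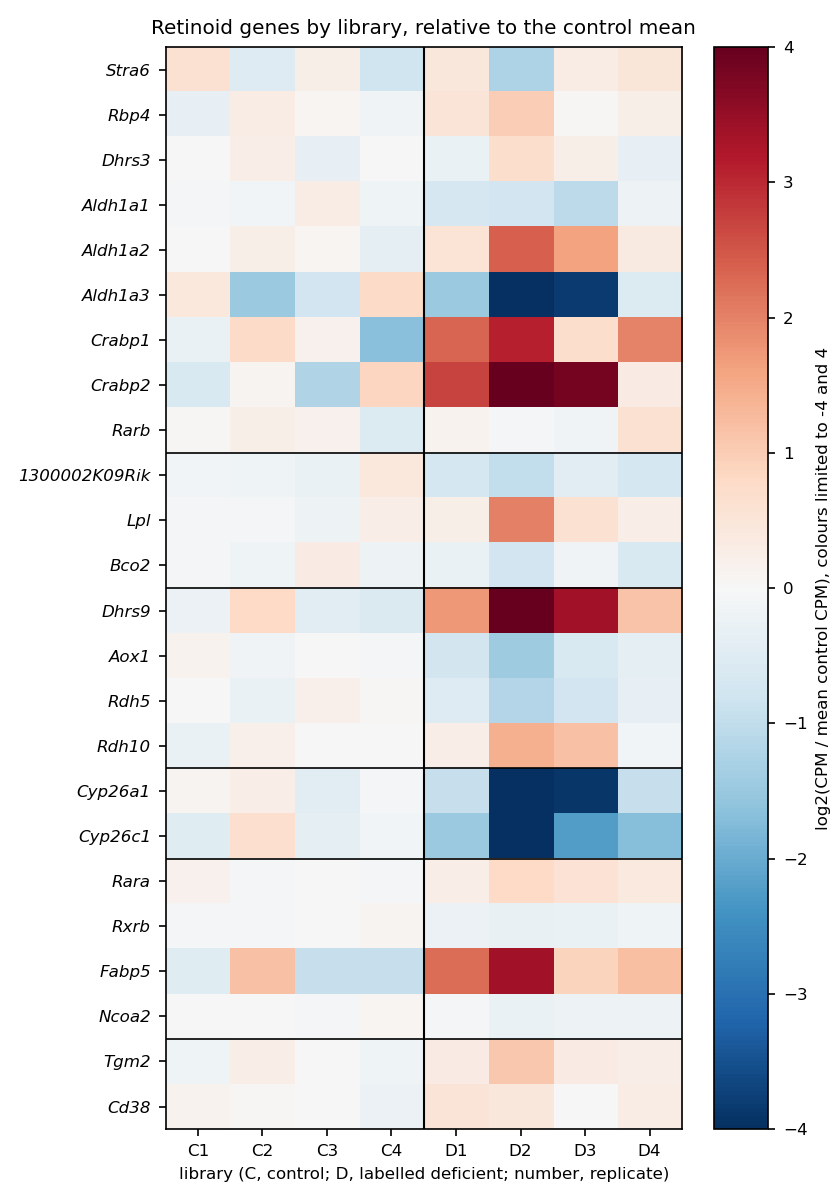
Log2 of CPM over the mean control CPM (colour, limited to -4 and 4) for the 9 genes (top block) and, of the other lists, the described genes with an unadjusted p under 0.05 plus Cyp26a1 (lower blocks: retinol supply, interconversion, breakdown, receptors and cofactors, response), by library (C, control; D, labelled deficient; number, replicate). Libraries 2 and 3 labelled deficient hold the strongest colours for Aldh1a2, Aldh1a3, Crabp2, Dhrs9 and Cyp26a1.

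Cell type markers moved with some of these genes. The summed level of 11 luminal and glandular epithelium markers was 1363 to 1592 CPM in the controls, 1460 and 1505 CPM in libraries 1 and 4 labelled deficient, and 3581 and 2534 CPM in libraries 2 and 3, with 8 of 11 markers positive in the fit. In those libraries 2 and 3, Epcam, Cdh1, Krt8, Krt19, Krt7, Esrp1 and Muc1 were above every control. Krt18, Cldn3, Cldn4 and Foxa2 were within or below the control range there, so the sum does not stand for the whole list. Of 8 macrophage and myeloid markers all were positive, with sums of 762 to 931 CPM in the controls and 939 to 1464 CPM in the other group. The mesothelium and serosa markers summed to 306 to 397 CPM in the controls and 205 to 257 CPM in the other group, with 7 of 7 tested markers negative. Krt5, which was not tested, gave 102 CPM of that sum in library 2 labelled deficient and at most 0.695 CPM in any other library, and without it the sums were 306 to 397 CPM in the controls and 205, 155, 251 and 251 CPM in libraries 1 to 4 labelled deficient. Most of the mesothelium and serosa sum was Wt1, at 254 to 271 CPM in the controls and 103 to 191 CPM in the other group. Of the other tested markers of that list, Upk1b did not overlap between the groups, and Upk3b, Msln, Lrrn4, Muc16 and Gpm6a did. Smooth muscle markers summed to 4245 to 6352 CPM and 4196 to 4898 CPM, with 9 of 9 negative.

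Aldh1a2 and Crabp2 were thus highest, and Cyp26a1 and Aldh1a3 lowest, in the same 2 libraries in which the epithelial sum was above the control range. Blood vessel endothelium markers also set these 2 libraries apart, with sums of 590 and 693 CPM, against 888 to 1080 CPM in the controls. Libraries 1 and 4 labelled deficient had 1183 and 1047 CPM of these markers. In libraries 1 and 4 labelled deficient the epithelial sum lay within the control range. Other sums did not: the myeloid sum was 939 and 988 CPM, above every control, and the mesothelium and serosa sum 205 and 252 CPM, below every control. In those libraries Aldh1a2 and Crabp1 were above, and Aldh1a1 and Cyp26a1 below, every control. The part of cell makeup in these differences was not tested. Ovary and oviduct markers summed to 67.7 to 107 CPM in the controls and reached 306 CPM in library 1 labelled deficient, of which Ovgp1 gave 270 CPM. Lrp2, an uptake receptor for retinol carriers chosen here after its values were seen, was at 179 CPM in that same library against 15.5 to 24.9 CPM in the controls.

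**Figure D5:**
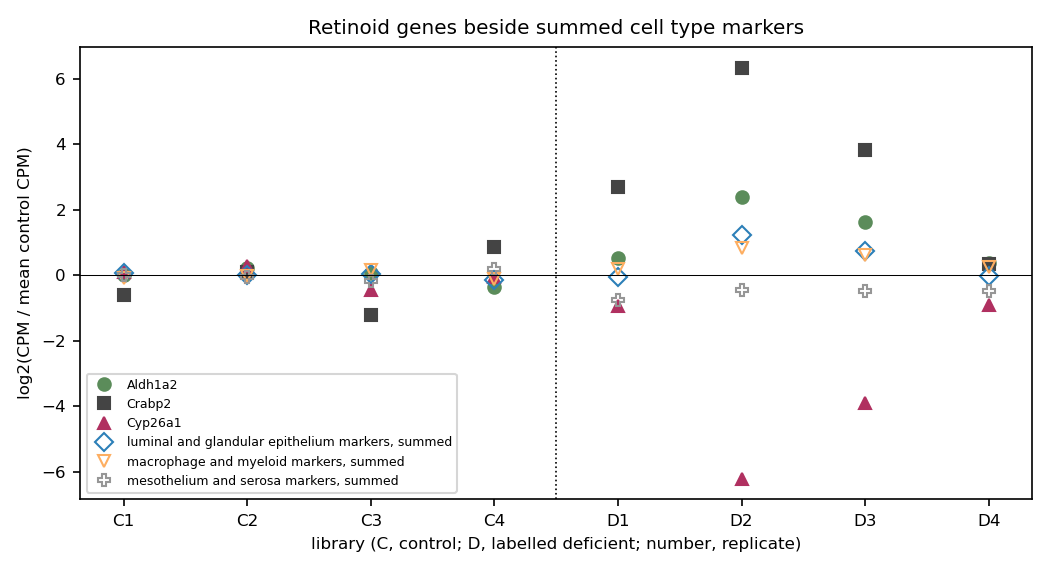
Log2 of CPM over the mean control CPM (vertical axis) in each library (C, control; D, labelled deficient; number, replicate) for Aldh1a2, Crabp2 and Cyp26a1 (filled) and for the summed markers of 3 cell types (open; the mesothelium sum of D2 includes 102 CPM of Krt5). Cyp26a1 lies below 0 and Aldh1a2 above 0 in all 4 libraries labelled deficient, while the epithelial sum stands clearly above 0 in D2 and D3 alone.

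Over the same 8 libraries, the genes whose log2 CPM followed each member most closely were read from 15244 genes at a mean of 1 CPM or more. For Aldh1a2 these were Ceacam1, an adhesion molecule (Pearson correlation 0.998; group means 45.9 CPM in control and 204 CPM in labelled deficient), and Naip2, an inflammasome receptor (0.997). For Crabp1 they were Wipf1 (0.988) and Prrx2, a mesenchymal homeobox gene (0.988), and for Crabp2 Ripk1 (0.988) and Cdc27 (0.987). For Aldh1a1 they were Tecr (0.982) and the unnamed transcript AK158612 (0.956), and for Aldh1a3 Gnmt (0.988) and Hp1bp3 (0.987). For Rbp4 they were Alyref (0.977) and E2f2 (0.977), for Stra6 Rtcb (0.964) and Orai3 (0.955), for Dhrs3 Pcsk7 (0.967) and Azi2 (0.963), and for Rarb Med21 (0.944) and Nid2 (0.941). The points share libraries, groups and scaling, and the closest of so many genes will be close in any case, so these values are descriptions only.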

How the data were processed

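The authors deposited whole-number read counts per gene symbol, without normalization, for 8 uterine libraries. HISAT2 2.2.1, HTSeq 0.10.0 and the build mm10 are named in the submitters' processing notes, while the counting options, strand included, are not given in the sources used. Columns were matched to samples by the tag in each title. Coordinates and older symbols come from a RefSeq gene table of GRCm38.p6.

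Genes were filtered with filterByExpr and scaled by TMM, and the group difference was tested with edgeR 4.0.16 (glmQLFit with legacy=TRUE, glmQLFTest; R 4.3.3) without covariates. The SE is the difference over the square root of its F value. Exact permutation tests used mean log2 CPM over all 70 placements of the labels. Alternatives were other scalings and filters, DESeq2 1.42.0, limma-voom (limma 3.58.1), robust=TRUE, legacy=FALSE, a replicate block, and leaving out libraries; DESeq2 without libraries was added after seeing the data. The scripts were tested on simulated counts.

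The 9 genes and all lists were chosen with earlier results of these data known. Other genes are named by a rule (Pgr; from each pathway list up to 5 genes with the smallest unadjusted p under 0.05; the 2 genes most like each member), and its clause on the highest gene per length could not be applied without transcript lengths; exceptions are marked. Lists whose sums are not compared by group above were endometrial stroma (10 markers, sums of 6546 to 7989 CPM in controls and 7905 to 9213 CPM in the other group), blood vessel endothelium (7 markers, 888 to 1080 CPM and 590 to 1183 CPM) and adipocyte (8 markers, 13.5 to 31.0 CPM and 14.0 to 24.4 CPM). Of the stroma markers, 3 were positive in the fit (Col1a1 at 0.67, Col3a1 at 0.33 and Lum at 0.18) and 7 negative, Hand2 at -0.75 among them. The higher stroma sums therefore do not stand for the list as a whole. Some genes that the rule names are counted in their lists but not reported here.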

Additional observations from a re-analysis of the deposited data

Results flagged for a closer look

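A gap test within each group of 4 libraries compared the distance from the highest or lowest library to its nearest neighbour with the range of the group. It was run in CPM on 70 groups of values, of which 6 were set apart. By chance 3.5 would be, if the values were independent and normally distributed. The groups share libraries and many of the genes were named by their p-values, so the 3.5 is no test of the 6. Library 2 labelled deficient stood apart for Crabp2 at 46.0 CPM, for Stra6 at 26.8 CPM, for Lpl at 86.4 CPM and for Tgm2 at 2054 CPM. Control library 2 stood apart for Fabp5 at 27.4 CPM. Library 1 labelled deficient stood apart for the summed mesothelium and serosa markers at 205 CPM, but only with Krt5 in the sum: without it, a check added after seeing the data, library 2 was the lowest at 155 CPM and no library stood apart (gap 0.522 of the range).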

How the results depend on the processing

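None of the 9 genes passed the adjusted threshold of 0.05 with other scalings, filters, robust=TRUE, legacy=FALSE, limma-voom, the replicate block or any 1 library left out of the edgeR fit. Over all genes the number past the adjusted threshold went from 0 to 2488 with DESeq2, 2 with limma-voom, 3 with legacy=FALSE and 23 with the replicate block, and from 0 to 2 on leaving out 1 library. DESeq2 called 4 of the 9. Genes at an unadjusted p under 0.05 numbered 4372 and lay between 2896, with control library 4 left out, and 5471, with library 4 labelled deficient left out. Genes without overlap numbered 2868 of 17629 and ran from 3156 to 4933 with 1 library fewer, where separation is easier. Of the 9, 2 did not overlap in the main fit, and from 2 to 4 with 1 library fewer. The 4 came without library 4 labelled deficient, the setting with 4933 such genes. Without libraries 2 and 3 labelled deficient, 3 of the 9 did not overlap, against 5362 of 18022 genes, a similar share. Directions turned for Rarb without library 4 labelled deficient (-0.0069 in edgeR, -0.0045 in DESeq2; edgeR range to 0.27), Stra6 without control library 4 (-0.061 and -0.053; to 0.41) and Dhrs3 without library 2 labelled deficient (-0.10 and -0.11; to 0.27) or without both libraries 2 and 3 (both -0.30); DESeq2 ranges reached 0.28, 0.42 and 0.28. The other 6 kept their direction in all 28 alternatives. Without libraries 2 and 3 labelled deficient, 3 of the 9 had an unadjusted p under 0.05, all higher, against 8.97% of all genes.

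The labels state no pairing by replicate number. The correlation of same-numbered deviations from the group means was 0.20, 0.22, -0.01 and -0.07. Between differently numbered libraries it ran from -0.26 to 0.29, and so few values cannot settle whether the libraries were paired. With the replicate block 0 of the 9 passed, and Fabp5 was among the 23 genes that did (adjusted p = 0.0443). An unadjusted p under 0.05 was reached by 5 of the 9 and by 4338 of all 17629 genes. Levels per length, promoter motifs and protein comparisons were not run. Aldh1a3 in libraries 2 and 3 labelled deficient and Crabp1 and Crabp2 in the controls rest on 18 to 116 counts a library. Crabp2 in library 4 labelled deficient rests on 52 counts, and Cyp26c1 in libraries 2 and 3 labelled deficient on 8 and 67. These levels are among the least precise.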
